A study of Mus musculus with 16 samples.

Results

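Astrocyte IP RNA was compared with Input RNA in the striatum of mice in which Crym had been edited in astrocytes. Of the 16 libraries of the series, the 8 labelled Crym KO were used, 4 IP and 4 Input libraries, and each IP library was set against the Input library of the same animal by the animal code in the labels. The 8 Control libraries (labelled WT, again 4 IP and 4 Input) were used only to ask whether the ratio of IP to Input differed between genotypes. All 8 mice were CAG-Cas9-EGFP animals, which express Cas9 and EGFP in every cell. At 6 to 8 weeks of age the central striatum was injected on both sides with 2 adeno-associated viruses, and tissue was taken at 10 to 12 weeks. In Crym KO mice the first virus carried 3 guides against Crym together with mCherry, in Control mice it carried a guide against GFP, and in both the second virus carried Rpl22-HA, a tagged ribosomal protein. The astrocyte promoter GfaABC1D drove mCherry and Rpl22-HA, whereas Cas9 was not restricted to astrocytes and the guides ran from a U6 promoter. Editing could therefore occur in any cell the guide virus reached, and tagging in reached cells in which the astrocyte promoter was active. The Input also held RNA of cells that neither virus reached.

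In this RiboTag design, ribosomes of cells that express Rpl22-HA are pulled down with an antibody against HA, and the RNA that comes with them (IP) is sequenced beside RNA of the whole lysate (Input). Astrocytes clear glutamate, GABA and potassium from the space around synapses, supply lactate and lipids to neurons, and in the striatum lie among GABA-releasing medium spiny neurons, which make up most of its neurons. Crym codes for μ-crystallin, which reduces cyclic ketimines and holds thyroid hormone in the cytosol. A ratio of IP to Input compares shares of 2 RNA pools, so it holds both which cells carried the tag and how strongly each RNA was bound to ribosomes, and fewer cells of a type cannot be told apart from less RNA per cell.

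The Crym KO IP libraries held 54638951 to 62596661 counts and the Crym KO Input libraries 39421209 to 49871036. Genes with at least 1 count numbered 24487 to 25212 per IP library and 26346 to 26962 per Input library. Levels are given in CPM (read counts scaled to library size, with TMM factors), and differences as the log2 ratio of IP over Input from limma-voom with the mouse as a block, where an adjusted p (Benjamini-Hochberg) under 0.05 is called. Deviations from the group mean were correlated within mouse at r = 0.261, 0.268, 0.0728 and 0.210 across genes for mice 1 to 4, and at 0.220, 0.167, -0.0116 and 0.141 across autosomal genes. The IP library of mouse 3 therefore followed its own Input least, and it was closer to the Input of mouse 4 (r = 0.181). Without mouse 3 the test called 7514 genes higher and 7566 lower, 1756 and 4066 of them over 2-fold.

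Of the 20645 genes tested, 15547 (75.3%) differed between the 2 fractions of the Crym KO mice. They split into 7648 genes higher in IP (37.0%) and 7899 lower (38.3%). Over 2-fold, 1634 genes were higher in IP (7.91%) and 4123 lower (20.0%), so large differences were mostly depletions. In 14039 genes (68.0%) the 4 IP values did not overlap the 4 Input values. The split of small differences depended on the scaling: with upper quartile scaling, which moved the median of all genes by -0.16 on the log2 scale, 5597 genes were higher and 9823 lower, and with scaling to the library total (a move of -0.19) 5237 were higher and 10219 lower. Counted per kilobase of exon, the most abundant RNAs of Crym KO IP were Apoe, Sparcl1, Cpe, Cst3, Glul and Slc1a2. The most abundant RNAs of Crym KO Input on that scale included mitochondrial transcripts, of which mt-Co1 came first.

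The 3 defining astrocyte markers were each about as enriched in every mouse. Aldh1l1, a folate enzyme (chromosome 6, 90486427 to 90600203, GRCm38), had 344, 370, 294 and 345 CPM in Crym KO IP of mice 1 to 4, against 66.8, 73.0, 68.1 and 62.98 CPM in Crym KO Input. Slc1a2, the main glutamate transporter (chromosome 2, 102658659 to 102790784), had 13686, 15397, 14493 and 16802 CPM in IP, against 3883, 4226, 3878 and 4093 CPM in Input. Gja1, the gap junction protein connexin 43 (chromosome 10, 56377330 to 56402513), had 589, 619, 562 and 645 CPM in IP, against 123, 118, 123 and 119 CPM in Input. No IP value of the 3 genes overlapped an Input value. Their log2 ratios were 2.32 ± 0.07, 1.91 ± 0.08 and 2.32 ± 0.06 (SE), which is 4.98-fold, 3.75-fold and 4.99-fold (limma adjusted p = 4.17e-10, 1.84e-09 and 3.92e-10). Each SE comes from the limma fit to all 16 libraries, with a spread partly pooled over genes.

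All 20 astrocyte markers tested were over 2-fold higher in Crym KO IP, against 7.91% of all genes, with ratios from 1.40 to 2.96 and a median of 2.20. Aqp4, the water channel of astrocyte endfeet, had a log2 ratio of 2.35, Slc1a3, the second glutamate transporter, 2.21, and Sox9, a glial transcription factor, 2.20. Glul, glutamine synthetase, stood at 1.76 and S100b, a calcium-binding protein, at 1.41, the lower end of the list. Summed over the list, IP held 392%, 416%, 375% and 444% of the Input level in mice 1 to 4, lowest in mouse 3. The median of the same list in Control mice was 2.04.

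**Figure D1:**
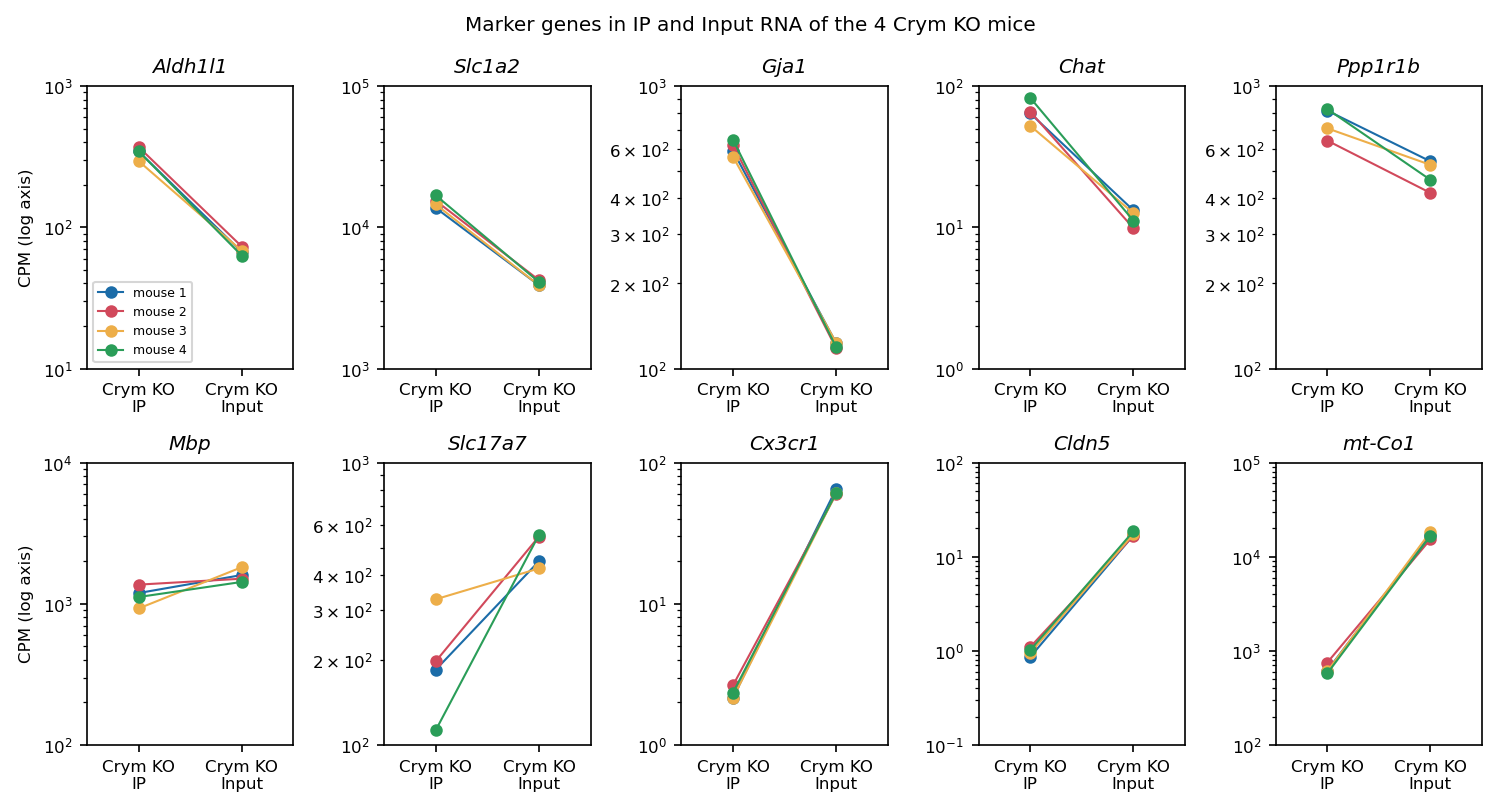
Levels of 10 marker genes in CPM (log axis) in Crym KO IP (left) and Crym KO Input (right), with 1 line per mouse. Aldh1l1, Slc1a2, Gja1 and Chat are higher in IP in every mouse, Cx3cr1, Cldn5 and mt-Co1 are lower in IP in every mouse, and Slc17a7 in IP spans 113 to 328 CPM with mouse 3 highest.

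The list of the 12 highest ratios, among named genes with at least 5 CPM in the higher fraction and the same direction in 4 of 4 mice, was not led by the classical markers. It held Gbp10 (log2 ratio 3.15), Gbp2 (3.03) and Gbp6 (2.92), interferon-induced GTPases, Ifit3b (2.93) and Ifit3 (2.85), interferon-induced proteins with tetratricopeptide repeats, Cxcl10 (2.81), a chemokine, and Oasl2 (2.77), of the oligoadenylate synthetase family. The others were Rpl22-ps1 (3.01), a copy of the tag gene, Slc43a3 (2.96), a nucleobase transporter, Gfap (2.96), the astrocyte intermediate filament, Cox6b2 (2.94), a cytochrome oxidase subunit, and Eda2r (2.83), a receptor of the TNF receptor family. Members of the Gbp and Ifit families are close copies of one another, so their single values are uncertain.

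Promoter stretches of 4 genes are shown because the same interferon-type letters stand in each of them, at the top of the ratio list. The letters GAAA, any 2 bases and again GAAA, the core of the interferon-stimulated response element, were searched on both strands in the RefSeq promoter windows (GRCm38.p6, 250 bases before to 50 after each gene start), and matches are in capitals. TTTC, 2 bases and TTTC is the same core read on the other strand.
Gbp2 (chr3:142620564-142620653, plus strand): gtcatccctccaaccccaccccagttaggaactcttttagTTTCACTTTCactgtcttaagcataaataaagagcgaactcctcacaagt
Ifit3 (chr19:34583333-34583456, plus strand): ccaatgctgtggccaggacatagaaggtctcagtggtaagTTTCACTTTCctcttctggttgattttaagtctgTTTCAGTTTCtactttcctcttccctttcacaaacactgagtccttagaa
Ifit3b (chr19:34607729-34607852, plus strand): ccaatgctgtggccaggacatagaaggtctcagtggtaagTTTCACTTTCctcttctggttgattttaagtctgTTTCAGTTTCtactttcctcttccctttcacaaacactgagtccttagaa
Cxcl10 (chr5:92349053-92349139, minus strand): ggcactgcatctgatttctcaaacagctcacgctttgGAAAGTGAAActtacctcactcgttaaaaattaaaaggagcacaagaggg

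Of the 12 genes, 8 had a window and these 4 held the letters, whereas the windows of Gfap, Oasl2, Cox6b2 and Eda2r did not. The core was in 3.44% of all 32851 windows, in 3.76% of the genes tested that had one, in 6.27% of those over 2-fold higher in Crym KO IP and in 4.71% of those over 2-fold lower. These shares are a description of letters, with no test. The stretches of Ifit3 and Ifit3b were identical in 124 of 124 bases, which shows how near these copies are.

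The level of the interferon-induced genes differed between mice in both fractions. Gbp2 had 106, 153, 40.8 and 46.2 CPM in Crym KO IP, against 11.6, 14.7, 8.90 and 5.999 CPM in Crym KO Input (log2 ratio 3.03 ± 0.20, adjusted p = 7.17e-08). Ifit3 had 162, 219, 64.3 and 63.1 CPM in IP, against 21.2, 22.8, 14.4 and 9.51 CPM in Input (2.85 ± 0.18, adjusted p = 6.71e-08). Cxcl10 had 11.6, 11.7, 2.74 and 3.05 CPM in IP, against 1.76, 1.29, 0.592 and 0.454 CPM in Input (2.81 ± 0.26, adjusted p = 1.57e-06). Mice 1 and 2 were higher than mice 3 and 4 in both fractions, and IP exceeded Input in each mouse. The same split of the mice was seen for Xist, the RNA that silences an X chromosome in females, which had 62.1, 79.1, 0.0172 and 0.0350 CPM in IP, against 161, 159, 0.245 and 0.335 CPM in Input. Whether sex has a part in the interferon levels was not tested. Without the block the call was lost for Cxcl10 (2.61, adjusted p = 0.0708) and Gbp10 (2.97, adjusted p = 0.0608). Of 24 type I interferon-induced genes, a list chosen after these values were seen, 24 were higher in IP and 20 over 2-fold, with a median of 1.95 in Crym KO and 1.87 in Control mice. Irf7, an interferon regulatory factor, stood at 0.57, the lowest of the 24. The call of Irf7 was lost without mouse 2 (adjusted p = 0.0804) and without the block (0.666).

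Genes of reactive astrocytes were high in the same fraction. Of 20 such genes tested, 17 were higher in Crym KO IP and 16 over 2-fold (median 2.11). Gfap had 1220, 1404, 761 and 946 CPM in IP, against 151, 134, 145 and 115 CPM in Input (log2 ratio 2.96 ± 0.15, adjusted p = 9.16e-09). Vim, a second intermediate filament, stood at 2.35, Serpina3n, a protease inhibitor, at 2.49, and C3, the complement component, at 1.91. The major histocompatibility genes H2-D1 (1.76) and H2-K1 (1.81) were also higher. Lcn2, lipocalin 2, had the highest ratio of the list (3.70) at low levels of 3.96, 1.73, 0.862 and 0.368 CPM in IP, against a mean of 0.130 CPM in Input. The summed list was at 566%, 685%, 356% and 568% of Input, again lowest in mouse 3. The list median in Control mice was 2.06.

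The transport functions that define astrocytes were enriched, with a few exceptions. Of 16 genes for potassium, water and gap junctions, 15 were higher in Crym KO IP, 12 of them over 2-fold (median 1.62). Among them were Kcnj10, the inward rectifier Kir4.1 (1.81), and Gjb6, connexin 30 (1.87). Slc12a2, a chloride cotransporter, was not called (0.09 ± 0.09, adjusted p = 0.385). Of 10 genes for glutamate uptake and the glutamine cycle, 7 were higher and 2 lower. Slc38a3, the glutamine exporter, stood at 2.06 and Glud1, glutamate dehydrogenase, at 1.56. Slc38a5, a further glutamine transporter, was lower with 0.0766 CPM in IP and 1.69 CPM in Input (-4.31).

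In GABA handling 9 of 13 genes were higher and 1 lower (median 1.22). Slc6a11, the glial GABA transporter GAT-3, had 238, 354, 246 and 356 CPM in Crym KO IP, against 63.7, 78.5, 72.5 and 67.6 CPM in Crym KO Input (log2 ratio 2.06 ± 0.10, adjusted p = 6.40e-09). Abat, GABA transaminase, stood at 1.48 and the GABA-synthesis enzymes Maob and Aldh1a1 at 2.169 and 2.22. The 1 lower member was Slc6a12, a betaine and GABA transporter, with 0.00925 CPM in IP and 0.234 CPM in Input on average.

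Receptors of astrocytes were unevenly enriched. Of 19 genes of calcium signalling and G protein receptors, 14 were higher in Crym KO IP and 7 over 2-fold (median 0.53). The highest of those named by the rule were Ednrb, an endothelin receptor (2.30), Gpr37l1, an orphan receptor (2.14), and Ntsr2, a neurotensin receptor (2.02). Itpr2, the calcium store channel of astrocytes, stood at 1.16 and Grm3, a metabotropic glutamate receptor, at 1.13. Grm5, a metabotropic glutamate receptor that striatal neurons use too, was at 0.26. Its call was lost with upper quartile and library total scaling (adjusted p = 0.0509 and 0.0856). Adrb1, a beta adrenoceptor, was lower in IP (-0.45), as was Slc8a1, a sodium-calcium exchanger (-0.38), whose call was lost without mouse 4 (adjusted p = 0.102).

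All 20 astrocyte transcription factors were higher in Crym KO IP, 14 over 2-fold (median 1.09). Sox2 (1.60) and Id3 (1.55) had larger ratios than Nfia (0.74), Nfib (0.36) and Nfix (0.26), which neurons express as well. Nfix lost its call with upper quartile and library total scaling (0.098 and 0.070, adjusted p = 0.071 and 0.165). Hes1, a Notch target, was at 0.20 ± 0.08 and passed only narrowly (adjusted p = 0.0433), and the call was lost without mouse 1, 2 or 3 (adjusted p = 0.156, 0.132 and 0.130) and without the block (0.0954). The Hes1 call was also lost with the edgeR and DESeq2 tests (0.0513 and 0.133), a 1 CPM filter (0.159), the 8 Crym KO libraries alone (0.0765) and all 3 other scalings. The ratio was 0.041 with upper quartile and 0.012 with library total scaling. All 18 genes of Notch, Shh, BMP and FGF signalling were higher (median 1.21), among them the receptors Fgfr3 (2.02), Bmpr1b (1.82), Notch2 (1.60), Smo (1.60) and Notch1 (1.41).

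Of 18 secreted or synapse-modulating factors 17 were higher in Crym KO IP and 13 over 2-fold (median 1.33). Thbs4, a thrombospondin, had 93.9, 58.2, 43.4 and 78.5 CPM in IP, against 13.0, 7.29, 10.02 and 9.94 CPM in Input (log2 ratio 2.75 ± 0.15, adjusted p = 1.51e-08). Sparcl1, hevin, stood at 2.03, Gpc5, a glypican, at 2.15, Chrdl1, a regulator of AMPA receptor maturation, at 1.79, and the phagocytic receptors Megf10 and Mertk at 1.56 and 1.37. The 1 lower member was Tgfb1, a growth factor that microglia express, at -2.78. Of 18 genes of adhesion and perisynaptic processes 14 were higher and 3 lower, with Ezr, a membrane-actin linker of fine processes, at 2.22 and Cdh22, a cadherin, at -0.49.

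**Figure D2:**
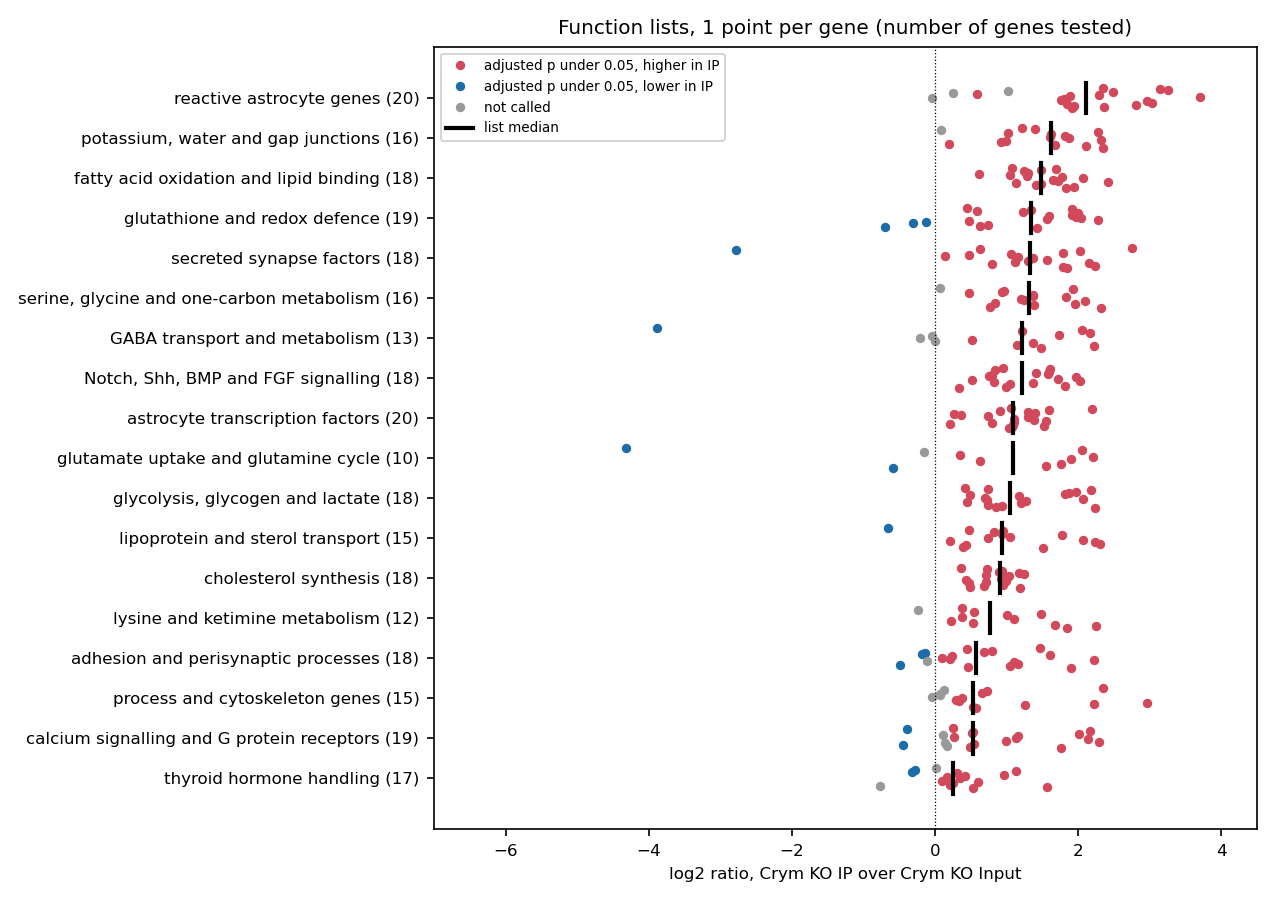
Log2 ratio of Crym KO IP over Crym KO Input for the genes of 18 function lists, 1 point per gene, coloured by call, with a bar at the list median. Reactive astrocyte genes have the highest median (2.11) and thyroid hormone handling the lowest (0.25).

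Most genes of the metabolic lists were higher, against 37.0% of all genes. All 18 genes of fatty acid oxidation and lipid binding were higher in Crym KO IP, 17 of them over 2-fold (median 1.48). Cpt1a, which admits long-chain fatty acids to mitochondria, had 106, 118, 103 and 120 CPM in IP, against 28.0, 25.4, 27.3 and 25.5 CPM in Input (log2 ratio 2.07 ± 0.08, adjusted p = 1.45e-09). Acadl (1.95), Acadm (1.41) and Hadha (1.30), enzymes of the following steps, were higher too. All 18 genes of glycolysis, glycogen and lactate were higher, 9 over 2-fold (median 1.05), led within the named genes by Aldoc, the glial aldolase (2.24), and the glycogen phosphorylases Pygm (2.175) and Pygb (1.97). Slc16a1, a lactate transporter, was at 0.75.

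All 18 genes of cholesterol synthesis were higher in Crym KO IP, 5 over 2-fold (median 0.91). Msmo1 (1.24) and Cyp51 (1.19), enzymes of the later, sterol-forming steps, were among them. Of 15 genes of lipoprotein and sterol transport 14 were higher. Apoe, the main brain apolipoprotein, stood at 2.31, Clu, clusterin, at 2.23 and Lcat, which esterifies cholesterol, at 2.06, while Scarb1, a lipoprotein receptor, was lower (-0.66).

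Of 16 genes of serine, glycine and one-carbon metabolism 15 were higher (median 1.31), with Gldc, the glycine decarboxylase, at 2.09 and Phgdh, the first enzyme of serine synthesis, at 1.83. Of 19 genes of glutathione and redox defence 16 were higher (median 1.34), with Gstm1, a glutathione transferase, at 2.27 and Prdx6, a peroxiredoxin, at 2.00. Gpx1 (-0.31), Gpx4 (-0.13) and Cp, ceruloplasmin (-0.70), were lower in IP, and the call of Gpx4 was lost without mouse 2, 3 or 4 (adjusted p = 0.124, 0.158 and 0.107). It was also lost with the 8 Crym KO libraries alone (0.0594) and with all genes of at least 1 count (0.178).

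Microglia had the lowest list median of the cell types. All 13 microglia and macrophage genes were lower in Crym KO IP, 12 of them over 2-fold against 20.0% of all genes (median -4.72). Cx3cr1, the fractalkine receptor, had 2.16, 2.65, 2.16 and 2.35 CPM in IP, against 65.0, 59.8, 60.5 and 60.9 CPM in Input, 26.3-fold lower (adjusted p = 3.72e-11). Csf1r, the receptor microglia need to survive, was 36.9-fold lower and C1qa, a complement subunit, 48.2-fold lower. Summed over the list, IP held 7.15%, 8.11%, 6.81% and 7.96% of Input. Cd163, a macrophage receptor, was at -0.85.

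Vascular and blood genes were also low, with exceptions. Of 12 endothelial genes 10 were lower and all 10 over 2-fold (median -3.86). Cldn5, the tight junction protein of endothelium, had 0.858, 1.09, 0.948 and 1.02 CPM in Crym KO IP, against 16.8, 16.6, 17.3 and 18.5 CPM in Crym KO Input (log2 ratio -4.13 ± 0.14, adjusted p = 6.80e-10). The 2 higher members, Slc2a1 (0.42), the glucose transporter, and Bsg (0.27), basigin, are not confined to endothelium. Bsg lost its call with scaling to the library total (0.08, adjusted p = 0.0788). Hbb-bs, a beta globin, had 0.878, 0.876, 0.759 and 1.02 CPM in IP, against 28.7, 20.6, 31.2 and 32.6 CPM in Input, and all 5 red blood cell genes were over 2-fold lower.

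Mural cell genes split by member. Rgs5 (-1.75), Vtn (-2.03), Kcnj8 (-2.09) and Anpep (-2.62), genes of pericytes, were lower. So were Abcc9 (-1.65) and Myh11, smooth muscle myosin (-1.16), whereas 4 of 10 were higher. Notch3, a Notch receptor of smooth muscle and pericytes, had 16.9, 26.4, 20.1 and 30.6 CPM in Crym KO IP, against 7.17, 9.56, 10.6 and 10.8 CPM in Crym KO Input (log2 ratio 1.29 ± 0.10, adjusted p = 3.18e-07). Pdgfrb, the platelet-derived growth factor receptor of pericytes, was at 0.97, Acta2, smooth muscle actin, at 0.95 and Tagln, transgelin, at 0.56. The same 4 genes had ratios of 1.17, 0.78, 1.39 and 0.94 in Control mice. Of 9 leptomeningeal fibroblast genes 8 were lower (median -3.38), and Pdgfrl, a receptor-like protein, was higher (1.10) at under 1 CPM in both fractions.

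Oligodendrocyte genes were near an even share. Of 14 tested, 1 was higher in Crym KO IP, 4 were lower and 9 were not called (median -0.04, against 37.0% higher and 38.3% lower among all genes). The median in Control mice was 0.30, and all 14 genes had a lower ratio in Crym KO than in Control mice. The limma test of the difference called none of them, and 14 genes of the same mice are not replicates of the genotype. Mbp, myelin basic protein, had 1191, 1366, 927 and 1116 CPM in IP, against 1597, 1505, 1815 and 1427 CPM in Input (log2 ratio -0.47 ± 0.11, adjusted p = 0.00218). The IP values of Mbp lay below all its Input values, whereas Cnp, a myelin enzyme, was higher in IP (0.37). The call of Cnp was lost without mouse 2 (adjusted p = 0.0529) and with upper quartile and library total scaling (0.0875 and 0.158). Mouse 3 had the lowest IP value of both genes, and the summed list was at 89.7%, 113%, 60.2% and 91.5% of Input. In Control mice 1 to 4 the summed list had 7914, 5970, 6099 and 5290 CPM in IP, against 6014, 5093, 5445 and 6354 CPM in Input. Summed IP thus lay above Input in Crym KO mouse 2 and below it in Control mouse 4. All 8 genes of oligodendrocyte precursors were lower (median -0.62), with Pdgfra, their growth factor receptor, at -0.94.

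**Figure D3:**
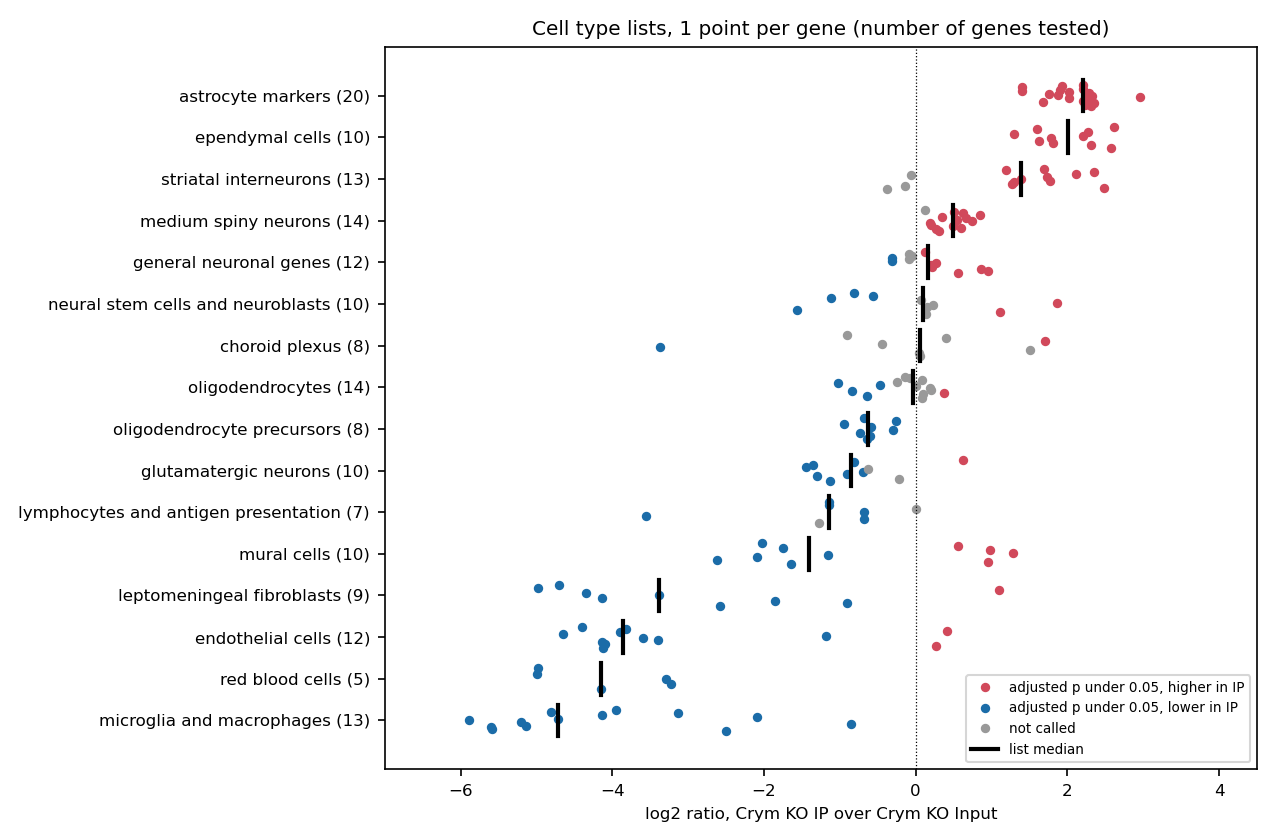
Log2 ratio of Crym KO IP over Crym KO Input for the genes of 16 cell type lists, 1 point per gene, coloured by call, with a bar at the list median. Astrocyte, ependymal and interneuron lists lie to the right (medians 2.20, 2.01 and 1.39) and microglia furthest to the left (-4.72).

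Neuronal RNA was not depleted as a whole, and its subtypes differed. Of 14 genes of medium spiny neurons 13 were higher in Crym KO IP, although none over 2-fold (median 0.50). Ppp1r1b, the phosphoprotein DARPP-32, had 818, 641, 708 and 829 CPM in IP, against 541, 418, 526 and 465 CPM in Input (log2 ratio 0.62 ± 0.07, adjusted p = 6.34e-06). Penk, the enkephalin precursor, stood at 0.85 and Drd1, a dopamine receptor, at 0.49. Drd2, the other main dopamine receptor, was at 0.20, a call lost without mouse 1, 2 or 4 (adjusted p = 0.0554, 0.168 and 0.156) and without the block (0.134). The Drd2 call was also lost with the edgeR and DESeq2 tests (0.0516 and 0.0812), a 1 CPM filter (0.202) and all 3 other scalings. The ratio was 0.034 with upper quartile and 0.006 with library total scaling. Tac1, the substance P precursor, was not called (0.12, adjusted p = 0.0637), and its sign turned with the 2 scalings that lower all ratios (-0.04 and -0.07). The median of the list was 0.59 in Control mice. Gad1 and Gad2, which make GABA in nearly all striatal neurons, stood at 0.95 and 0.86, the highest of 12 general neuronal genes. Of these 12, 7 were higher, 2 lower and 3 not called (median 0.17), against 37.0% higher and 38.3% lower among all genes. The 2 lower were Rbfox3 (-0.32) and Stmn2 (-0.31). This median turned below 0 with scaling to the library total (-0.025).

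Most interneuron genes had larger ratios. Of 13 tested 10 were higher in Crym KO IP, all 10 over 2-fold against 7.91% of all genes (median 1.39), and Pvalb, Calb2 and Cort were not called. Chat, choline acetyltransferase, had 64.1, 66.0, 52.4 and 82.6 CPM in IP, against 13.2, 9.88, 12.6 and 11.2 CPM in Input (log2 ratio 2.49 ± 0.15, adjusted p = 3.97e-08). Slc5a7, the choline transporter of the same cells, had 122, 135, 104 and 148 CPM in IP, against 27.0, 23.3, 26.4 and 22.7 CPM in Input (2.35 ± 0.14, adjusted p = 3.16e-08). Both exceeded Slc1a2 in log2 ratio, and Chat ranked 80 among the 20645 genes. Of 10 genes of cholinergic interneurons, a list chosen after these values were seen, 10 were higher and 8 over 2-fold (median 2.07), including Slc10a4 (2.23), a vesicular transporter, and Ecel1 (2.03), a peptidase.

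Genes of other interneuron classes had lower ratios than Chat. Nos1, neuronal nitric oxide synthase, had 223, 190, 208 and 243 CPM in Crym KO IP, against 68.7, 61.9, 57.9 and 63.5 CPM in Crym KO Input (log2 ratio 1.77 ± 0.08, adjusted p = 5.98e-09). Npy (1.39) and Sst (1.19), peptides of the same interneurons, were lower than Nos1 in log2 ratio. Pvalb, the calcium-binding protein of fast-spiking interneurons, had 28.7, 42.1, 39.9 and 29.8 CPM in IP, against 28.7, 42.9, 44.9 and 30.6 CPM in Input and was not called (-0.06, adjusted p = 0.518). Calb2, calretinin, was not called either (-0.37, adjusted p = 0.173). With library total scaling both were called lower (adjusted p = 0.0226 for Pvalb and 0.0483 for Calb2). Pvalb was also called lower with upper quartile scaling (0.0275), and Calb2 with the DESeq2 test (0.0442) and with the 8 Crym KO libraries alone (0.0211). Pthlh (1.73), Lhx6 (1.29) and Kit (1.27) of the same list were over 2-fold higher. In Control mice Chat and Nos1 had ratios of 2.55 and 1.74, and Pvalb had -0.02.

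Genes of glutamatergic neurons, whose cell bodies lie in cortex and thalamus, were lower. Of 10 tested 7 were lower and 1 higher (median -0.86). Slc17a7, the vesicular glutamate transporter VGLUT1, had 185, 198, 328 and 113 CPM in Crym KO IP, against 447, 547, 422 and 554 CPM in Crym KO Input (log2 ratio -1.35 ± 0.30, adjusted p = 0.00150). Mouse 3 was highest in IP, and the summed list was at 49.97%, 44.4%, 77.9% and 31.6% of Input. Slc17a6, VGLUT2, stood at -1.45 and Cux2, of upper cortical layers, at -1.13. The 1 higher member was Tcf7l2, a transcription factor of thalamic neurons that oligodendrocytes also express (0.63). It had low levels (4.30 CPM in Crym KO IP and 2.75 CPM in Crym KO Input), and its ratio in Control mice was -0.15. Of 19 genes of presynaptic release 4 were higher and 6 lower (median -0.08), below the 37.0% and 38.3% of all genes, with Stx1a, syntaxin 1A, at -1.12 and Sv2a, a vesicle protein, at 0.47.

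Of the cells that line or lie beside the ventricle, ependymal genes were higher. All 10 ependymal genes were over 2-fold higher in Crym KO IP (median 2.01). Foxj1, the regulator of motile cilia, had 48.5, 46.3, 29.99 and 52.0 CPM in IP, against 9.64, 8.33, 11.6 and 8.32 CPM in Input (log2 ratio 2.21 ± 0.16, adjusted p = 2.19e-07). The summed list was at 467%, 551%, 254% and 573% of Input, and mouse 3 was lowest in IP for Foxj1. Of 10 genes of neural stem cells and neuroblasts 2 were higher and 4 lower. Egfr, a receptor of activated stem cells that astrocytes also express, was at 1.86 and Cd24a at 1.11, whereas Dcx, doublecortin of neuroblasts, had 11.4, 11.004, 12.8 and 14.2 CPM in IP, against 34.2, 34.0, 36.1 and 41.5 CPM in Input (-1.56 ± 0.05, adjusted p = 3.95e-10). Mki67, a proliferation marker, was at -1.12. Of 8 choroid plexus genes 6 were not called, among them Ttr, transthyretin (-0.91, adjusted p = 0.374).

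RNAs that cytosolic ribosomes do not translate were among the lowest ratios. Mitochondrial transcripts, which ribosomes inside the organelle translate, took 0.114% to 0.157% of the counts in Crym KO IP libraries and 5.87% to 6.62% in Crym KO Input libraries. The 12 mitochondrial mRNAs tested were all over 2-fold lower (median -4.81). The gene mt-Co1, a cytochrome oxidase subunit, had 618, 751, 605 and 577 CPM in IP, against 17152, 15296, 18366 and 16613 CPM in Input, 26.5-fold lower (adjusted p = 3.72e-11). The mitochondrial rRNAs mt-Rnr2 and mt-Rnr1, measured here after a step that removes rRNA, stood at -6.15 and -5.82.

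Rmrp, the RNA of RNase MRP, had 6.18, 8.61, 6.48 and 6.67 CPM in Crym KO IP, against 584, 581, 559 and 561 CPM in Crym KO Input, 81.8-fold lower and the lowest ratio by the naming rule (-6.35 ± 0.19, adjusted p = 3.92e-10). All 9 structured non-coding RNAs tested were lower, 8 over 2-fold (median -5.11), with Rpph1, the RNA of RNase P, at -2.38 and Scarna2, a Cajal body RNA, at -0.62. Nuclear long non-coding RNAs were lower in 14 of 16 (median -2.47). Malat1, a nuclear speckle RNA, had 693, 977, 789 and 864 CPM in IP, against 5365, 5256, 5830 and 5111 CPM in Input (-2.71 ± 0.09, adjusted p = 7.20e-10). Meg3 (-2.96), Kcnq1ot1 (-2.73) and Neat1 (-2.25) were close to it, Tug1 was at -0.14, and Pantr1 was higher (1.15). The 12 host genes of small nucleolar RNAs were all lower (median -1.22), Gas5 at -1.12 and Snhg14 at -1.88.

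The 12 lowest ratios of the naming rule divided between these RNAs and immune genes. They were Rmrp, mt-Rnr2, mt-Rnr1, mt-Nd6 (-5.63), mt-Cytb (-5.44) and Rn7s6 (-5.48) on one side, and Ctss (-5.89), C1qb (-5.59), C1qa (-5.59), Adgre1 (-5.53) and Tyrobp (-5.39), genes of microglia and macrophages, on the other. The last was Igkv5-39, annotated as an immunoglobulin variable gene (-5.88).

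By annotated class, protein-coding genes were balanced and most non-coding classes were not. Of 15351 protein-coding genes 9.25% were over 2-fold higher in Crym KO IP and 9.30% over 2-fold lower (median 0.10). Over 2-fold lower were 95.5% of 179 sense intronic transcripts, 93.7% of 111 small nucleolar RNAs, 90.9% of 55 small nuclear RNAs and 88.1% of 1313 transcripts to be experimentally checked (TEC). Among 671 long intergenic RNAs the share was 43.5%, and 6.71% were over 2-fold higher. Sense intronic transcripts lie within introns of other genes, and reads of unspliced RNA cannot be told apart from them in this table. How many TEC transcripts overlap other genes was not counted. Processed pseudogenes had a median of 0.16, near that of coding genes, and reads of their parent genes can be assigned to them.

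**Figure D4:**
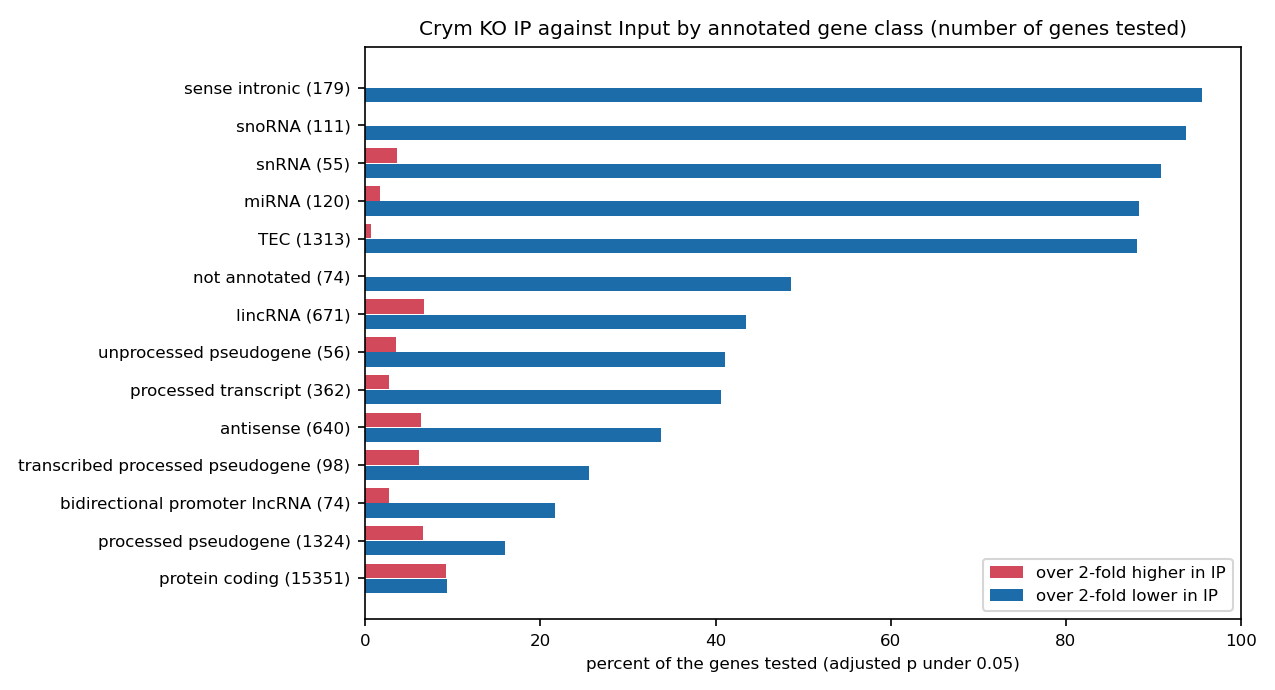
Percent of the tested genes of each annotated class that were over 2-fold higher (red) or over 2-fold lower (blue) in Crym KO IP than in Crym KO Input, for classes with at least 50 genes tested. Sense intronic, snoRNA, snRNA, miRNA and TEC genes lie between 88.1% and 95.5% over 2-fold lower, against 9.30% of protein-coding genes.

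Among coding genes, most ribosomal protein genes were lower and most endoplasmic reticulum chaperone genes higher in Crym KO IP. Of 44 large-subunit ribosomal protein genes 38 were lower in Crym KO IP and 1 higher (median -0.70), and of 32 small-subunit genes 30 were lower (median -0.76). Rplp1, an acidic stalk protein, had 78.8, 74.7, 73.8 and 80.5 CPM in IP, against 202, 174, 197 and 181 CPM in Input (log2 ratio -1.29 ± 0.04, adjusted p = 6.17e-10). The 1 higher gene, Rpl15 (0.10), turned in sign with the upper quartile and library total scalings (-0.07 and -0.10). Translation factors were mixed, with 13 of 21 higher, such as Eif4g1 (0.81), Eif3c (0.79) and Eif3a (0.67) of the initiation complexes, and 7 lower, such as Tpt1 (-0.68) and Pabpc1 (-0.33).

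Of 18 endoplasmic reticulum chaperone and translocon genes 17 were higher in Crym KO IP (median 0.69), with the chaperones Hspa5 at 0.86, Canx at 0.86 and Pdia4 at 0.98. Of 23 nuclear genes of oxidative phosphorylation 17 were higher and 2 lower (median 0.49). Large catalytic subunits such as Ndufs1 (0.95) and Sdha (0.92) were above the small subunits Cox6a1 (-0.18) and Cox8a (-0.20), whereas the mitochondrial mRNAs tested were all lower. Among 18 immediate early genes 5 were higher and 7 lower (median -0.09), no more than the 37.0% and near the 38.3% of all genes, with Egr2 at 0.93 and Arc at -0.20 (adjusted p = 0.0517). Of 10 replication-dependent histone genes 6 were higher, with Hist1h2bc at 1.40, and Hist1h1b was lower (-0.71).

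Rpl22, which encodes the tagged protein, had 714, 704, 598 and 496 CPM in Crym KO IP, against 108, 100.3, 123 and 90.5 CPM in Crym KO Input (log2 ratio 2.57 ± 0.09, adjusted p = 7.60e-10). Counts of the endogenous gene and of the virus-borne copy were not separated in the table. Its pseudogene copies Rpl22-ps1 (3.01), Gm13196 (2.73), Gm9457 (3.22) and Gm12005 (2.95) were as high or higher. The study kept only uniquely mapped reads, and reads of such near copies can be dropped or assigned to the wrong copy. The paralogue Rpl22l1, which no virus carried, was lower (-1.39), like most ribosomal protein genes.

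Crym itself (chromosome 7, 120186380 to 120202111) had 68.6, 66.0, 47.9 and 76.0 CPM in Crym KO IP, against 52.5, 41.0, 42.4 and 41.4 CPM in Crym KO Input (log2 ratio 0.53 ± 0.13, adjusted p = 0.00298). The ratios of single mice were 0.39, 0.68, 0.18 and 0.87 in Crym KO, against 2.07, 1.27, 1.55 and 1.98 in Control mice. It ranked 3716 of 20645 genes by its ratio in Crym KO mice (the top 18.0%) and 499 in Control mice (the top 2.42%). Its IP and Input values overlapped in Crym KO mice. Abca14, a neighbouring transporter gene, was at 1.59 in Crym KO and 0.03 in Control mice at low levels (1.44 CPM in Crym KO IP and 0.484 CPM in Crym KO Input). For Abca14 neither limma nor DESeq2, a second test, called a difference between genotypes.

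The pathways in which μ-crystallin acts were present in the same IP RNA. Of 12 genes of lysine and ketimine metabolism 11 were higher in Crym KO IP, 6 over 2-fold (median 0.78), with the lysine-degrading enzymes Aass at 2.25 and Aldh7a1 at 1.68. Of 17 genes of thyroid hormone handling 13 were higher and 2 lower. Dio2, the deiodinase that makes the active hormone, had 276, 330, 317 and 327 CPM in IP, against 93.3, 116, 103 and 111 CPM in Input (log2 ratio 1.56 ± 0.08, adjusted p = 1.03e-08), and Slco1c1, a thyroxine transporter, was at 1.13. The receptors were not enriched, since Thra was lower (-0.28) and Thrb was not called (0.01 ± 0.07, adjusted p = 0.895).

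Gene lists from the study's single-cell data of Crym+ astrocytes gave different counts. Of 125 tested genes listed as higher in Crym+ astrocytes 116 were higher in Crym KO IP and 102 over 2-fold (median 1.63). Of 50 listed as lower in Crym+ astrocytes 18 were higher and 17 lower (median 0.02), close to the 37.0% and 38.3% of all genes, with Gfap, Thbs4 and Agt (2.38) among the 6 over 2-fold higher and Meg3 and Snhg11 (-2.84) among the 3 over 2-fold lower. The lists held 5 and 1 of the 20 astrocyte markers.

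The comparison with Control mice asked whether editing of Crym changed the ratio of IP to Input of any gene. The log2 ratios of the 2 genotypes followed each other across the 20645 genes (Pearson r = 0.963, with genes not independent replicates), and their median absolute difference was 0.0896. Of the 1634 genes over 2-fold higher in Crym KO mice and the 1525 in Control mice, 1379 were in both, which is 84.4% of the first list and 90.4% of the second. Of the 4123 and 4174 genes over 2-fold lower 3757 were in both, and 0 genes passed 2-fold in opposite directions.

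By limma, 0 genes (0%) differed in ratio between the genotypes at an adjusted p under 0.05 (lowest 0.487), against 915 (4.43%) at an unadjusted p under 0.05. By the edgeR quasi-likelihood test the counts were 0 and 914, and by DESeq2 11 and 583. The genes with the lowest p by limma are given as values. For Crym the ratio in Crym KO minus that in Control mice was -1.19 ± 0.18 (SE), the largest shift of the 10 (adjusted p = 0.487). For Rpl22 it was 0.70, for Zic1, a transcription factor of the ventral forebrain, 0.82, for Plcb4, a phospholipase, 0.33, and for Aifm3, a mitochondrial protein, 0.44. For Nts, the neurotensin precursor, it was -1.06, with ratios of -0.19, -0.39, -0.81 and -0.39 in the Crym KO mice, against 1.10, 0.62, 0.21 and 0.47 in the Control mice. For Htr2c, a serotonin receptor, it was -0.41, for Lmo7, an actin-associated protein, -0.30, for Ptger4, a prostaglandin receptor at 1.60 CPM in Crym KO IP, 1.07, and for Nfix 0.31. The DESeq2 list of 11 held Crym (adjusted p = 4.32e-07), Rpl22 (0.000597), Nts and Zic1 (both 0.000761), and 7 others.

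**Figure D5:**
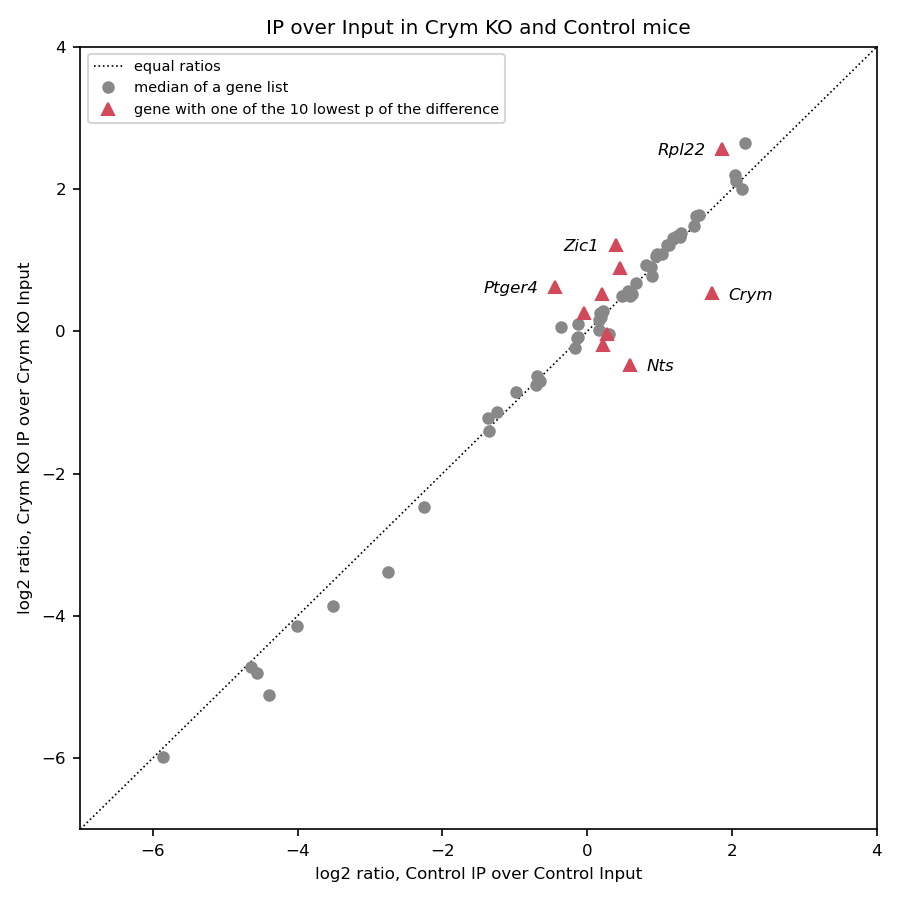
Log2 ratio of IP over Input in Crym KO mice (vertical axis) against that in Control mice (horizontal axis), for the medians of 51 gene lists (grey) and the 10 genes with the lowest p of the difference (red triangles). Most list medians lie near the line of equal ratios, with structured non-coding RNAs (-5.11 in Crym KO and -4.40 in Control mice) and leptomeningeal fibroblasts (-3.38 and -2.75) below it. Crym and Nts lie below it and Rpl22, Zic1 and Ptger4 above it.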

How the data were processed

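Libraries were made from rRNA-depleted striatal RNA and sequenced as read pairs. The authors aligned reads to mm10 with STAR, counted them per gene with HTSeq and deposited 1 table of raw counts per gene and library (bcl2fastq 2.17 is named in the submitters' processing notes). The study names the RefSeq (refFlat) gene model, whereas the table has Ensembl identifiers, and the use of strand is not given in the sources used here, so antisense and overlapping genes are uncertain. Of 48795 identifiers, 48435 were matched by identifier to the GENCODE annotation (GRCm38), and 360 were not (0.0765% of counts). No 2 libraries were identical.

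Counts were filtered by filterByExpr (20645 genes kept), TMM-scaled (edgeR 4.0.16) and tested with limma 3.58.1 (voom) in R 4.3.3, the package the study names. All 16 libraries entered the fit, which held the mouse as a block and 1 IP term per genotype. CPM are TMM-scaled, and ratios per mouse add 0.1 CPM. Alternatives were the fit with no block, the 8 Crym KO libraries alone, the edgeR quasi-likelihood test, DESeq2 1.42.0, 3 other scalings, 2 other filters and each mouse left out.

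The pairing comes from the animal codes in the labels. In Control mice the same-mouse correlations were 0.231, 0.294, 0.331 and 0.463.

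Named genes were the 12 highest and 12 lowest ratios (adjusted p under 0.05, at least 5 CPM in the higher fraction, 4 of 4 mice in one direction, with a gene symbol other than a clone name), up to the first 10 members of each list with members called against the list's majority, the edited and tag genes, and the 10 lowest p of the difference between genotypes. Rplp1, Cd163, Calb2, Tug1, Eif3a, Eif3c, Xist, the most abundant RNAs and the lists of interferon-induced and cholinergic genes were chosen after their values were seen. Some genes that the rule names are not reported here. Members and lists were chosen with earlier results of these data known. Each list is described by its counts, to be read against the shares of all genes (37.0% higher, 38.3% lower, 7.91% and 20.0% over 2-fold), with no set test. List members not tested were Cd3e, Nkg7, mt-Nd4l and Rn7sk, which were below the filter, and Rmst, Agt1 and AC154683.1, which had no matching symbol. On simulated counts for the Crym KO comparison (20645 genes) the fit recovered 50.7%, 74.6% and 93.9% of genes changed by 0.5, 1 and 2 on the log2 scale, with 9 false calls. Only 67, 67 and 66 genes were changed there, and all other genes had equal means in the 2 fractions, with no difference between mice. In the data 75.3% of genes were called, so these rates need not hold for them.

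The labels tie libraries to animals, so replicates are mice. An exact permutation test on 4 paired values cannot go below p = 0.125, so adjusted p values rest on the spread pooled over genes. Figures were drawn with matplotlib 3.10.9.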

Additional observations from a re-analysis of the deposited data

Results flagged for a closer look

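Of 111 sets of 4 values examined for 1 value standing apart from the other 3 (chance gives about 1 in 20 sets), 3 had one. Crym in Crym KO Input stood at 52.5 CPM in mouse 1, against 41.0 to 42.4 CPM in the other mice. The summed red blood cell genes in Crym KO IP were at 5.96% of Input in mouse 2, against 4.70% to 4.80% in the others, and the summed mitochondrial rRNAs at 1.97% in mouse 2, against 1.24% to 1.35%.

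For 4 genes every Crym KO mouse had a ratio on one side of 0 and every Control mouse on the other. The differences, Crym KO minus Control on the log2 scale, were -0.41 for Htr2c, -1.06 for Nts and -0.30 for Lmo7, which lay below 0 in Crym KO mice, and 1.07 for Ptger4, which lay above 0 in Crym KO mice. The limma test of the difference passed for none of the 4 (adjusted p = 0.487 for Htr2c and Nts, 0.529 for Lmo7 and 0.661 for Ptger4), whereas DESeq2 called Htr2c (0.0106), Nts (0.000761) and Lmo7 (0.0225).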

How the results depend on the processing

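The results were refitted under 17 alternatives. A mouse left out gave 7145 to 7514 genes higher and 7205 to 7566 lower in Crym KO IP, 1527 to 1756 and 3964 to 4066 of them over 2-fold, and 0 genes that differed between genotypes (0 to 0, Control mice left out included). With no replicate block the counts were 7471, 7820, 1594, 4135 and 0. Genes lower in Crym KO IP outnumbered genes higher except where 1 CPM in 4 libraries was required (6371 higher and 6198 lower). That filter left 2111 genes over 2-fold lower among 16320 tested, since fewer low genes were tested, and DESeq2 called 11 genes that differed between genotypes (the cause was not tested).

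Over 199 named genes, 2500 of 2584 values under alternatives kept direction and call, 53 lost the call, 18 gained it and 13 turned in sign. Those that turned were small ratios. They were, with upper quartile and library total scaling, Slc12a2 (-0.073 and -0.10), Tac1 (-0.042 and -0.071) and Rpl15 (-0.067 and -0.095). Thrb turned with these scalings (-0.15 and -0.18), with DESeq2 (-0.012), RLE scaling (-0.011), the 1 CPM filter (-0.061) and with a Crym KO mouse left out (-0.055 to 0.049, below 0 without mouse 3), and Lmo7 with genes of at least 1 count (0.0002964). For 51 list medians there were 663 values under alternatives, of which 572 moved by less than the spread between mice, 87 moved further (64 with the upper quartile and library total scalings) and 4 turned in sign. These were general neuronal genes with library total scaling (-0.025), and neural stem cell and neuroblast genes with upper quartile (-0.060) and library total scaling (-0.088) and with a Crym KO mouse left out (-0.050 to 0.14, below 0 without mouse 2). Fold changes of RNAs nearly absent from IP rest on few counts.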
